A study of Mus musculus with 6 samples.

Results

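The mouse zinc finger genes described here carry the name Zfp followed only by a number. Of the 23259 gene names in the table, 340 have this form. Zfp36, Zfp57, Zfp352 and Zfp473 were set aside, which left 336 names, of which 320 had at least 1 read. The 140 members were chosen by their summed reads, at least 200 over the 3 groups, and 196 names fell under that minimum, 16 of them with 0 reads. The choice used total reads, so levels are descriptive. For 48 members the minimum was met only with the reads of 2-cell embryos (21 of the 29 members called higher there are among them), and for 46 only with those of WT zygotes (23 of the 53 called lower). Just above the minimum, the reads, given here and below in the order WT zygotes, Pabpn1l-null zygotes, 2-cell embryos, were 5, 0 and 207 for Zfp599, 73, 45 and 89 for Zfp384, and 136, 60 and 11 for Zfp563. Just below it they were 95, 12 and 92 for Zfp946, 75, 29 and 92 for Zfp451, and 70, 40 and 83 for Zfp760.

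The samples were wild-type (WT) zygotes, Pabpn1l-null zygotes, which lack the oocyte poly(A)-binding protein gene Pabpn1l, and WT embryos at the 2-cell stage, with 2 samples in each of the 3 groups. Per the labels' protocols, a sample was a pool of 50 zygotes from mated females that was labelled for 2 h with 200 μM 4-thiouridine (S4U), beginning 26 h after hCG. The protocol text is the same for the 2-cell samples and gives no later time for them. The labels do not give the mouse strain, the age, the exact allele or how many females gave the embryos. S4U enters RNA made during the labelling and, after iodoacetamide, is read as C where the gene has T, so a T-to-C read marks RNA that may be newly made. Reads with such a mismatch also arise without label, and no unlabelled library was used here.

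Most genes named in this way encode C2H2 zinc finger proteins, in which each finger folds around a zinc ion and a string of fingers reads a DNA sequence. Many carry a KRAB domain that recruits TRIM28 and, through it, SETDB1 and heterochromatin proteins, and many of these repress retroelements or guard imprinted loci. Genes of the KRAB class lie in tandem clusters of related copies. A minority bind RNA, ribosomes or microtubules.

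Each group has 1 column of reads and 1 of T-to-C reads, so no difference below has a replicate check, and every test compares libraries, not conditions. Reads on named genes numbered 3001472, 1270347 and 4020444 in the same order of columns, with 90945, 48987 and 182592 T-to-C reads. All 10 oocyte and early embryo markers had reads in every column. The 2-cell markers summed to 217, 21 and 10820 reads, with Tcstv1 and Tcstv3 at 0 in every column. Of 15 cumulus and granulosa markers, 9, 13 and 8 were at 0 and the sums were 131, 27 and 107 reads. Pabpn1l had 47, 4 and 14 reads, so the library labelled null held fewer, at a depth that shows no difference (ratio 0.188, 95% interval 0.00701 to 2.46). In RNA from whole embryos, fewer cells that express a gene and less RNA per cell cannot be told apart. Related Zfp copies can share reads, so values of clustered neighbours may be partly mixed.

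The promoters of members at both ends of the range, and of 2 members with many T-to-C reads, are printed to show how different in CG content these start sites are. Each line gives 250 bases upstream of the start on RefSeq GRCm38.p6, the assembly of mm10, with CG dinucleotides in capitals. Zfp54 and Zfp367 were among the members most above WT zygotes at the 2-cell stage, Zfp770 and Zfp951 were called higher there in T-to-C reads, and Zfp169 and Zfp345 had the lowest ratios.
Zfp54 (chr17:21422977-21423226, plus strand): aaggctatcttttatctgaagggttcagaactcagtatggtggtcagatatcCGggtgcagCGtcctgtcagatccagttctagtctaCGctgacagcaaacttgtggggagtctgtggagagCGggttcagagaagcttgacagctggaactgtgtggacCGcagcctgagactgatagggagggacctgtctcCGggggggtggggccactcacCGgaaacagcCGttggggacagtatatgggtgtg
Zfp367 (chr13:64153200-64153449, minus strand): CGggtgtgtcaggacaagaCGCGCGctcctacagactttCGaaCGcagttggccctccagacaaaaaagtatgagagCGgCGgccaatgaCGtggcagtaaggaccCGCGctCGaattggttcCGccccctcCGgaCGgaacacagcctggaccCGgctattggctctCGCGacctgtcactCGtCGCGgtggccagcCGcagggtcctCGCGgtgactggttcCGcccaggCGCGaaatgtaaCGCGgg
Zfp770 (chr2:114201433-114201682, minus strand): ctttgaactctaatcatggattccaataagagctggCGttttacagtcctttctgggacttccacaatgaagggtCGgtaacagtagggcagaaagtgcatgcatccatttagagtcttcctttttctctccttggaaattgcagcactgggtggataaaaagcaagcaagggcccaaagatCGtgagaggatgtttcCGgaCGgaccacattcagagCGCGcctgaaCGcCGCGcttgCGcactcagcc
Zfp951 (chr5:104860069-104860318, minus strand): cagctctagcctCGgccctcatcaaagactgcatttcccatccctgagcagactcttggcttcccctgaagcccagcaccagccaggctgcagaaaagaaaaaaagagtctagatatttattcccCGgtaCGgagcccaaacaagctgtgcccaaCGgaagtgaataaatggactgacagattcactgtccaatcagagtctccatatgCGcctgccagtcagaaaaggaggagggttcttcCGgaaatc
Zfp169 (chr13:48513437-48513686, minus strand): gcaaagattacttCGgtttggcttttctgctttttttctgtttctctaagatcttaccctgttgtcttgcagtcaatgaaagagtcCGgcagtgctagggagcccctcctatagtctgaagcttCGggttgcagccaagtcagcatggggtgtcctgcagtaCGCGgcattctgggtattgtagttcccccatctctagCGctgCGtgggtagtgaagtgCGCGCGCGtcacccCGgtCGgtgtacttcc
Zfp345 (chr2:150485064-150485313, minus strand): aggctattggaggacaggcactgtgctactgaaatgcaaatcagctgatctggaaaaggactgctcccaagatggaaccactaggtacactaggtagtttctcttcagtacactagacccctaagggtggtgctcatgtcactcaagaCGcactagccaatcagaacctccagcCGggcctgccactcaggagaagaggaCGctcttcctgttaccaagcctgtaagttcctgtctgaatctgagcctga
Zfp367 held 29 CG dinucleotides in its window, Zfp169 13, Zfp770 11, Zfp54 8, Zfp951 6 and Zfp345 3. The windows of Zfp951 and Zfp169 reach 89 and 57 bases into the annotated gene, and the others end at the gene's 5′ end. A window was found for 116 of the 140 members. Their median was 11.5 CG dinucleotides, against 6 over all 27024 promoters, which include those of non-coding genes. On either strand, the letters TATAAA were in 3.45% of the members' windows and 13.0% of all, CCAAT in 43.1% and 34.5%, and CCGGAAG in 15.5% and 7.07%. The 3 motifs do not overlap one another in letters, and a match is not a binding site. Members called higher, lower or neither at the 2-cell stage had a median of 13.5, 9 and 13 CG dinucleotides, over 20, 47 and 49 windows.

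At the 2-cell stage the Zfp genes split, with 1 set higher than in WT zygotes and a larger set of zygotic transcripts lower. The contrast was partly set by the choice of members. Of the 29 called higher, 21 met the minimum only with the 2-cell reads, and of the 53 called lower, 23 only with the WT zygote reads. Zfp707 went from 10 reads in WT zygotes to 1218, Zfp775 from 73 to 2661 and Zfp217 from 18 to 845, while Zfp383 went from 1093 to 43 and Zfp345 from 532 to 16. Of the 140 members, all tested, 29 were called higher (20.7%), 53 lower (37.9%) and 58 neither. A call needs an adjusted p under 0.05 (exact conditional binomial test, two-sided, Benjamini-Hochberg over all genes tested, 7 reads counted as 1 molecule) and a difference of at least 2-fold. Over all 11262 genes tested, 16.4% were called higher and 16.1% lower, and over the 5511 genes that meet the members' minimum, 24.0% and 26.5%. Beside genes that meet the same minimum, the members' share called higher was the smaller of the pair (20.7% against 24.0%), and their share called lower the larger (37.9% against 26.5%). In total reads the members had a median log2 ratio of -0.41, beside 0.03 over all genes tested and -0.06 over genes with at least 200 reads. The members' quartiles were -2.11 and 0.72. With edgeR's exact test at an assumed biological variation of 0.4, 15 members were called higher and 35 lower. Over all genes that test called 2970 of 11262.

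**Figure D1:**
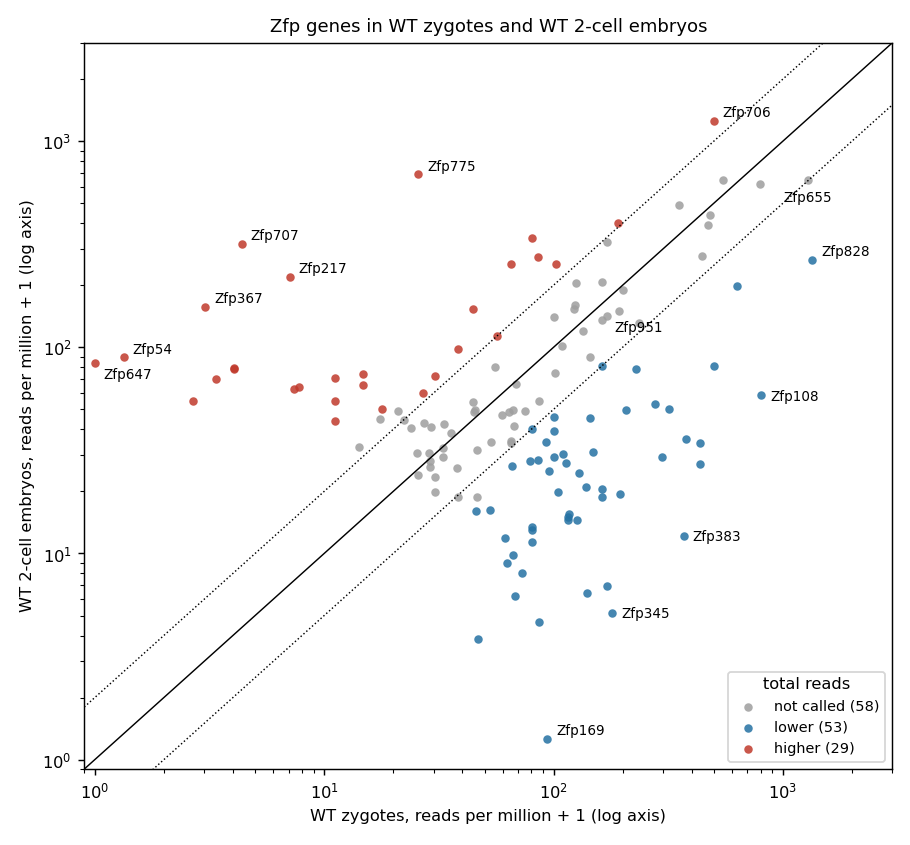
Depth-scaled reads (per 1000000, with 1 added) of each of the 140 members in WT zygotes (x) and in WT 2-cell embryos (y), both on log axes; 1 point is 1 gene, the solid line marks equal levels and the dotted lines 2-fold. The 29 genes called higher include a row of points at very low zygote levels, and the 53 called lower all had more than 100 reads in WT zygotes.

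The 10 members with the highest ratios had low counts in both zygote columns, and met the minimum only through the 2-cell column. Low zygote and high 2-cell counts were thus a condition of their choice. Zfp647 had 0 reads in either zygote column and 319 in 2-cell embryos, at least 11.7-fold higher against a floor of 3 molecules, or 21 reads, with a two-sided interval that begins at 9.21. Zfp707 had 10, 0 and 1218 reads, a ratio of 2-cell embryos to WT zygotes of 93.6 (95% interval 23.7 to 5313). Zfp54 had 1, 0 and 341 reads, a ratio of 262 whose interval begins at 9.83. Intervals here are exact Clopper-Pearson intervals on molecules, and they and the floors cover counting error only. Both zygote columns were thus at or under the floor for these 3 genes, and the 2-cell column stood apart.

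Zfp367, a factor linked to cell cycle genes, had 6, 0 and 603 reads (ratio 77.3, 11.6 to 2641). Zfp217, related to a human oncogene, had 18, 12 and 845 reads (36.1, 10.4 to 152). Zfp775 had 73, 43 and 2661 reads (28.0, 15.7 to 61.4). Zfp775 and Zfp217 are the only ones of the 10 highest ratios with reads in null zygotes.

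Zfp503, a developmental repressor of the nervous system and limb, had 7, 0 and 266 reads (29.2, 4.94 to 1184). Zfp599 had 5, 0 and 207 reads (31.8, 3.83 to 941). Zfp948 had 9, 0 and 301 reads, and Zfp346, which binds double-stranded RNA, 9, 0 and 300, with ratios of 25.7 and 25.6. The intervals of these 10 genes overlap one another, so the order among them is not resolved by the counts.

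The members with the lowest ratios were above the floor of 21 reads in both zygote columns. Zfp169, Zfp160, Zfp433 and Zfp563 met the minimum only with the WT zygote reads, so high counts there were a condition of their choice. Zfp169 had 276 reads in the WT column, 119 in the null column and 1 in the 2-cell column, a ratio of 0.00279 with an upper end of 0.0763. Zfp345 had 532, 223 and 16 reads (0.0231, 0.00241 to 0.0756). Zfp383 had 1093, 447 and 43 reads (0.0302, 0.0107 to 0.0658). In each of them the 2-cell column was the low one and the null column, at less depth, was not.

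Zfp866 had 506, 182 and 23 reads, Zfp160 413, 123 and 21, and Zfp433 253, 78 and 14, which are 28.6-fold, 25.6-fold and 23.5-fold lower at the 2-cell stage. Zfp58 had 1287, 411 and 101 reads, and Zfp60 had 1284, 426 and 129, which are 16.6-fold and 12.9-fold lower. Zfp563 had 136, 60 and 11 reads and was 16.1-fold lower. Zfp108 had 2379, 676 and 222 reads, and was 13.9-fold lower (ratio 0.0717, 0.0487 to 0.104).

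The members with the most reads did not share a direction. Zfp828, also named Champ1, whose product helps chromosomes attach to spindle microtubules, had 3977, 1417 and 1019 reads and was 5.08-fold lower at the 2-cell stage (ratio 0.197, 0.164 to 0.237). Zfp706, a small zinc finger protein gene, had 1476, 472 and 4828 reads and was 2.51-fold higher (2.15 to 2.95). Zfp655 had 3823, 1464 and 2494 reads (ratio 0.501, 0.437 to 0.574), just short of the 2-fold rule. Zfp957 had 2343, 983 and 2377 reads, and Zfp592 1616, 997 and 2491, with ratios of 0.780 and 1.18. In each column the 5 members with the most reads held 24.5%, 25.6% and 26.5% of all members' reads. All members together took 1.96%, 1.76% and 1.39% of the columns' reads.

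Members with a known role outside the retroelement pathway moved in both directions at the 2-cell stage. Of 5 members tied to RNA, ribosomes or the spindle, 3 were higher and 2 lower, beside the same 24.0% and 26.5% of genes with at least 200 reads. Of those higher, Zfp346 and Zfp106 met the minimum only with the 2-cell reads, so the count was partly set by the choice. Zfp598, a ubiquitin ligase that senses collided ribosomes, had 251, 217 and 1048 reads and was 3.21-fold higher (2.21 to 4.75). Zfp106, an RNA-binding protein gene, had 87, 26 and 275 reads and was 2.43-fold higher, and Zfp346 is described above. Zfp207, a spindle assembly and BUB3-binding factor, had 322, 109 and 113 reads and was 3.71-fold lower, and Zfp830, linked to splicing and DNA damage, had 426, 98 and 171 reads and was 3.24-fold lower.

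Of 4 stem cell and developmental factors, 3 were higher and 0 lower, where 24.0% and 26.5% of genes with at least 200 reads were called. Among those higher, Zfp217 and Zfp281 met the minimum only with the 2-cell reads, so the count was partly set by the choice. With so few genes the count describes these 4 alone. Zfp281, a pluripotency regulator, had 111, 49 and 375 reads (ratio 2.60, 1.46 to 4.86). Zfp296, known from reprogramming and heterochromatin work, had 190, 194 and 970 reads (3.92, 2.61 to 6.22), and Zfp217 is given above. Zfp148, a GC-box binding factor, had 394, 194 and 458 reads and a ratio of 0.894 (0.615 to 1.30), without a call.

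Of 6 members on a list of retroelement and imprint repressors, 1 was higher, 2 were lower and 3 were not called, beside the same background. Here too the choice played a part, since Zfp777 met the minimum only with the 2-cell reads and Zfp708 only with those of WT zygotes. Zfp708, which binds a class of endogenous retroviral element, had 212, 59 and 27 reads and was 10.2-fold lower. Zfp961 had 937, 418 and 189 reads and was 6.45-fold lower. Zfp777 had 77, 35 and 228 reads, with a ratio of 2.28 (1.14 to 5.06, adjusted p = 0.0476). Zfp445, an imprint keeper, had 591, 139 and 731 reads (0.951), Zfp568, a repressor of a placental Igf2 transcript, 363, 143 and 615 (1.30), and Zfp932, a repressor of endogenous retroviruses, 298, 38 and 287 (0.740).

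Partners of KRAB zinc finger proteins were also measured, and 3 of 21 tested were higher, 5 lower and 13 not called, with a median log2 ratio of -0.27. These counts lie near the 16.4% higher and 16.1% lower of all genes tested, or 24.0% and 26.5% of those with at least 200 reads. Trim28, the common corepressor, had 96, 87 and 282 reads (ratio 2.26, 1.17 to 4.37), and Setdb1, the H3K9 methyltransferase it recruits, 510, 222 and 123 (0.185, 0.106 to 0.321). The corepressor and the enzyme it recruits were thus called in opposite directions. The other calls were Cbx3 and Suv39h1 higher, and Dnmt3a, Mphosph8, Smarcad1 and Uhrf1 lower. Among related families, 7 of 13 tested Zscan and Zkscan genes were lower and 1 higher, and of 29 tested Zbtb genes 1 was lower and 5 higher, beside 16.1% lower and 16.4% higher over all genes tested. The Zbtb count of higher calls is near that background. Members Zfp161, Zfp238 and Zfp295 are RefSeq's Zbtb14, Zbtb18 and Zbtb21, and Zfp192 is Zkscan8.

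Of the members that lie in genomic clusters, 26 were called lower at the 2-cell stage and 7 higher. Clusters were taken as at least 3 members on 1 chromosome with neighbouring starts within 500 kb, which gave 10 clusters with 48 members. The calls inside make 14.6% higher and 54.2% lower, with a median log2 ratio of total reads of -1.50. The 92 members outside had 22 higher and 27 lower (23.9% and 29.3%), with a median of -0.15. Over genes with at least 200 reads, 24.0% were higher and 26.5% lower. Calls inside clusters were also partly set by the choice of members, as given below for single genes. No test was made between the members inside and outside, since neighbours are related copies that can share reads and are not independent.

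In a few of the 10 clusters every gene that met the minimum was called lower. On chr7:24132372-24303840 all 5 members, Zfp235, Zfp111, Zfp109, Zfp108 and Zfp61, were lower, with a median log2 ratio of -2.90. All 3 members on chr10:81704747-82077727 (Zfp433, Zfp781, Zfp873) and all 3 on chr17:32965831-33110707 (Zfp472, Zfp952, Zfp563) were lower too. On chr13:67069398-67683512, 4 of 5 were lower (Zfp708, Zfp759, Zfp58, Zfp748), while Zfp738 had 130, 13 and 183 reads without a call. On chr15:75615200-75975868, Zfp623 and Zfp707 were higher and Zfp41 was not called.

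Neighbours could also differ from each other. On chr17:21008941-22361428, Zfp54, Zfp51 and Zfp948 were higher, Zfp160 and Zfp229 lower, and Zfp942, Zfp943 and Zfp944 were not called. Zfp51 had 41, 17 and 283 reads there, beside 413, 123 and 21 for Zfp160. Zfp54, Zfp51 and Zfp948 met the minimum only with the 2-cell reads, and Zfp160 only with those of WT zygotes. The contrast between these neighbours was thus partly set by the choice of members. In the largest cluster, 9 members on chr7:29768552-30107622, 3 were lower and 0 higher. In all, 30 members lie on chromosome 7, and 14 each on chromosomes 8 and 17.

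**Figure D2:**
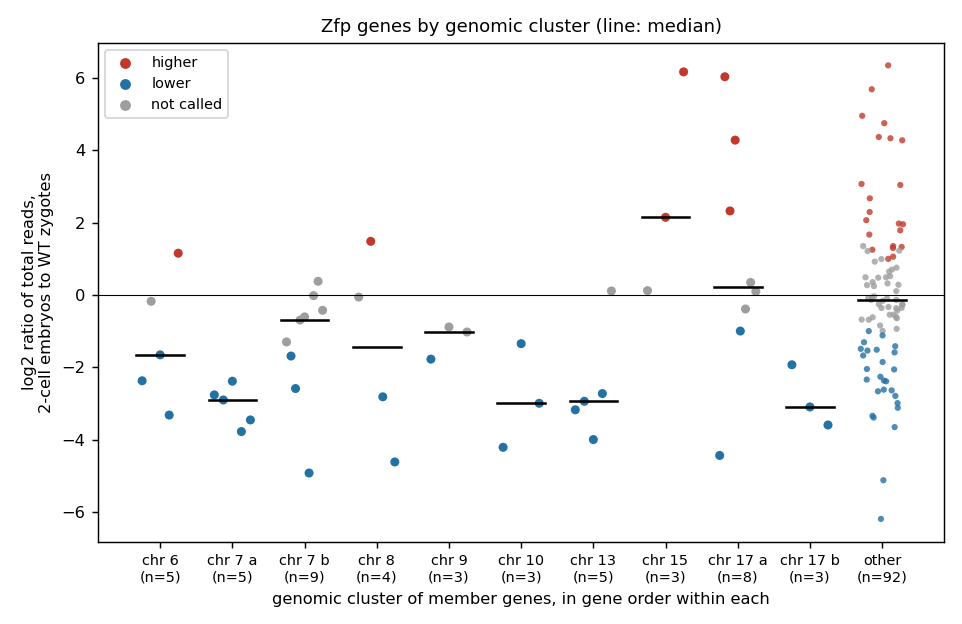
Log2 ratio of total reads, 2-cell embryos to WT zygotes (y), for the members of each genomic cluster in gene order (x) and for the 92 members outside clusters; bars mark medians and colours the calls. Every point of the first chromosome 7 cluster lies below 0 with a median of -2.90, while the chromosome 15 cluster has its median above 0.

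A few members were called in T-to-C reads or T-to-C share at the 2-cell stage, at rates near those of all genes. Zfp951 had 503 reads with 24 T-to-C in the WT zygote column, 51 with 0 in the null column and 542 with 271 at the 2-cell stage. Its T-to-C share was thus 4.77% in WT zygotes and 50.0% in 2-cell embryos (95% interval 39.0% to 62.2%), while its total reads were not called (ratio 0.828, 0.588 to 1.15). Zfp750, known as a regulator of epidermal differentiation, had 814 reads with 5 T-to-C, 221 with 0 and 202 with 80. Its share was 0.614% in WT zygotes and 39.6% (20.7% to 57.7%) in 2-cell embryos, while its total reads were 5.24-fold lower there. Zfp791 had 568 reads with 10 T-to-C, 228 with 0 and 575 with 115, a share of 1.76% in WT zygotes and one with an interval of 11.6% to 29.7% in 2-cell embryos.

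These 3 were the members called in T-to-C share, all higher, of 126 tested (two-sided Fisher's exact test on molecules, adjusted p = 1.38e-08 for Zfp951, 5.65e-06 for Zfp750 and 0.0103 for Zfp791). Over the 6909 genes tested, 1.85% were higher and 0.0579% lower, beside 2.38% and 0.0% of the members tested. At an unadjusted p under 0.05, 6 members were higher and 1 lower, a cut at which the share of all genes was not computed. Counting each read as 1 molecule gave 26 members, 17 of them higher, beside 1083 of 6909 genes.

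For labelled reads themselves, 93 members could be tested and 3 were higher (3.23%) and 2 lower (2.15%). Over 4376 genes the shares were 4.32% and 1.62%. For Zfp770 the T-to-C reads were 0 of 165, 1 of 78 and, in 2-cell embryos, 107 of 433, at least 3.92-fold more T-to-C reads against the floor, with a two-sided interval that begins at 2.76. Zfp951 and Zfp791 had T-to-C ratios of 8.68 (3.18 to 50.5) and 8.84 (1.91 to 516). Zfp770's total reads were 2.02-fold higher, and its share at the 2-cell stage, 24.7%, was not called (adjusted p = 0.317, Fisher's exact test).

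Zfp828 had 285, 103 and 77 T-to-C reads, 4.81-fold lower at the 2-cell stage (ratio 0.208, 0.0956 to 0.409), with a share of 7.17%, 7.27% and 7.56%. Its labelled and total reads were thus lower by a like factor. Zfp108 had 57, 12 and 3 T-to-C reads (ratio 0.0405, upper end 0.450, adjusted p = 0.0437 by the exact conditional binomial test). With the T-to-C columns scaled to their own sums, Zfp770 and Zfp791 lost their calls and 1 member was higher and 3 lower. With RLE factors Zfp108 lost its call, with 3 higher and 1 lower. Without a filter on low counts, Zfp770, Zfp791 and Zfp108 were not called, and edgeR did not call Zfp828.

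Of the members with at least 100 reads in 2-cell embryos, 104 in all, 10 had a T-to-C share above 10%. Beside the 4 above they were Zfp142 (31 of 123 reads), Zfp35 (32 of 209), Zfp869 (26 of 189), Zfp58 (12 of 101), Zfp781 (16 of 148) and Zfp738 (19 of 183). In WT zygotes 4 of 103 members were above 10%, Zfp846, Zfp182, Zfp534 and Zfp592, and in null zygotes 3 of 56, Zfp341, Zfp207 and Zfp592. Zfp592 was above it in both zygote columns, with 171 of 1616 reads (10.6%) and 107 of 997 (10.7%), and had 136 of 2491 (5.46%) in 2-cell embryos. Zfp341 had 17 of 193, 32 of 181 and 32 of 99 reads, and its total reads were 2.54-fold lower at the 2-cell stage.

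The 10 members with the highest ratios in total reads had between 1 and 43 labelled reads each in 2-cell embryos, with no test between them. Zfp367 had 1 of 603 reads, Zfp707 4 of 1218, Zfp54 2 of 341, Zfp775 43 of 2661, Zfp599 4 of 207 and Zfp647 7 of 319. Zfp346 had 10 of 300, Zfp217 31 of 845, Zfp948 17 of 301 (5.65%) and Zfp503 18 of 266 (6.77%). These last 2 lie above the 4.54% of all genes, but so few labelled reads do not resolve the difference. Summed over the 29 members called higher, the T-to-C share in 2-cell embryos was 2.41% (2.21% to 2.62% on reads), and 1.95% without Zfp770. Over the 53 called lower it was 5.61% (5.07% to 6.18%), and 4.56% without Zfp750. Among other genes with at least 200 reads, those called higher had 4.43% and those called lower 4.73%. The classes were set by total reads of the same columns, so these sums are given as a description.

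Over all members the summed share was 3.19%, 3.59% and 3.88% in the 3 columns, where all genes had 3.03%, 3.86% and 4.54%. Leaving out the single member that weighs most gave 2.90% (without Zfp828), 3.26% (without Zfp592) and 3.43% (without Zfp951). At the level of single members, 29, 75 and 26 had 0 T-to-C reads in the 3 columns, so in the null column most members had no T-to-C read to compare.

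**Figure D3:**
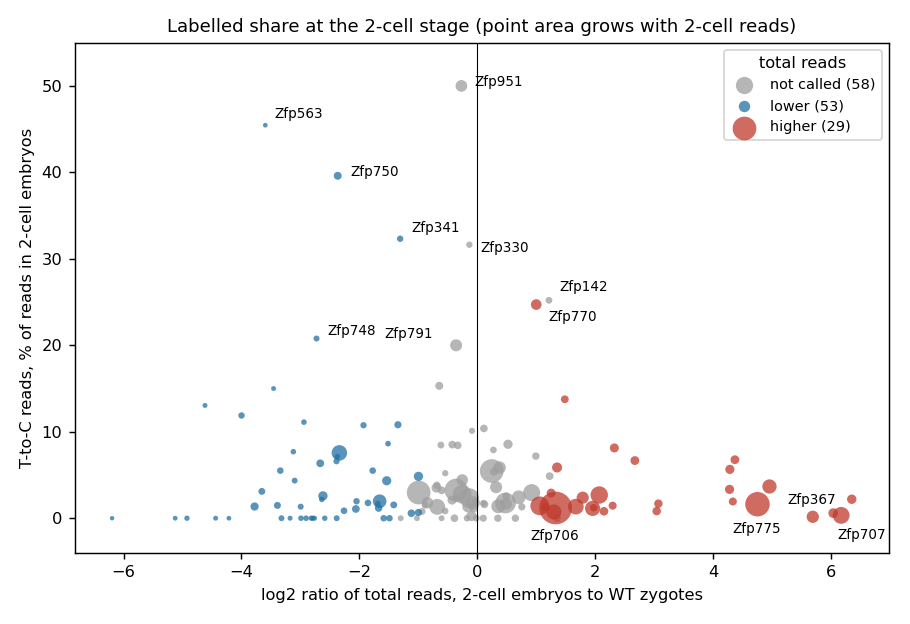
T-to-C reads as a percent of reads in 2-cell embryos (y) against the log2 ratio of total reads, 2-cell embryos to WT zygotes (x), for the 140 members; point area grows with 2-cell reads and colour gives the call on total reads. Zfp951 at 50.0% and Zfp750 at 39.6% lie at or left of 0, the largest red points lie below 5%, and Zfp563 rests on 11 reads.

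In Pabpn1l-null zygotes few Zfp genes differed from WT zygotes. Of 140 tested, 1 member was called higher and 5 lower, against 0.639% and 0.773% of all 11262 genes and 1.2% and 1.58% of those with at least 200 reads. In total reads the members' median log2 ratio was -0.31, beside -0.18 over all genes tested and -0.14 over genes with at least 200 reads. At an unadjusted p under 0.05, 11 members were higher and 32 lower. The share of all genes at that cut was not computed, so these counts have no background to be read against. With edgeR at the assumed variation, 0 members were called, beside 147 of 11262 genes, so each of the 6 calls rests on the binomial test.

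Zfp951, with the highest T-to-C share of the members with at least 100 reads at the 2-cell stage, had 503 reads in WT zygotes and 51 in null zygotes, 4.46-fold lower (ratio 0.224, 0.0835 to 0.466). Zfp120 had 371 and 27 reads, 6.21-fold lower (0.161, 0.0439 to 0.453). Zfp229 had 479 and 45 reads, 4.81-fold lower (0.208, 0.0692 to 0.447). The 2-cell column of these genes held 542, 52 and 310 reads, and Zfp120 and Zfp229 were also called lower there against WT zygotes (9.28-fold and 2.01-fold), while Zfp951 was not called.

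Zfp748 had 409 and 55 reads, 3.36-fold lower (adjusted p = 0.0251, exact conditional binomial test), a call that was lost without the filter on low counts. Like Zfp120, it met the minimum only with the WT zygote reads. Zfp709 had 675 and 125 reads, 2.44-fold lower (0.410, 0.236 to 0.691). At the 2-cell stage Zfp748 and Zfp709 were 6.91-fold and 2.93-fold lower than in WT zygotes, a comparison that shares the WT zygote column. Zfp821 was the member called higher, with 129, 191 and 589 reads. Its ratio of null to WT zygotes was 3.28 (1.76 to 6.40) and that of 2-cell embryos to WT zygotes 3.51 (2.14 to 6.34). Both ratios share the WT zygote column, so they are not independent.

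No listed repressor, RNA-linked member, developmental factor or corepressor partner was called in null zygotes. No background over all genes was computed for an unadjusted p under 0.05. At that cut, Zfp932, Zfp445, Zfp830 and the partners Mphosph8 and Trim24 were lower, and Zfp296 and Zfp598 higher. Of these, Zfp932 had the smallest adjusted p, with 298 and 38 reads (ratio 0.282, 0.0795 to 0.648, adjusted p = 0.0505 by the exact conditional binomial test). Zfp445 had 591 and 139 reads (0.520, 0.306 to 0.866) and Zfp830 426 and 98 (0.509, 0.262 to 0.918). Zfp296 had 190 and 194 reads (2.26, 1.30 to 4.05) and Zfp598 251 and 217 (1.91, 1.14 to 3.17). The 10 members highest at the 2-cell stage had at most 73 reads in WT zygotes and at most 43 in null zygotes, and 8 of them had 0 in null zygotes.

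Neither T-to-C reads nor the T-to-C share of any member was called in null zygotes. Of 93 tested in T-to-C reads, 0 passed, against 0.0457% of genes higher and 0.0% lower. At an unadjusted p under 0.05 the count of members was 0 as well, and edgeR also called 0 members. Of 118 tested in T-to-C share, 0 passed, against 0.0% higher and 0.0167% lower over 5999 genes, and 0 members had an unadjusted p under 0.05. Counting each read as 1 molecule gave 18 calls in T-to-C reads, 9 each way, and 15 in share, 11 of them higher. Over all genes it gave 745 of 4376 and 797 of 5999. The null column is the shallowest, and 75 of 140 members had 0 T-to-C reads in it, so differences in label were not detectable at this depth for most members.

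**Figure D4:**
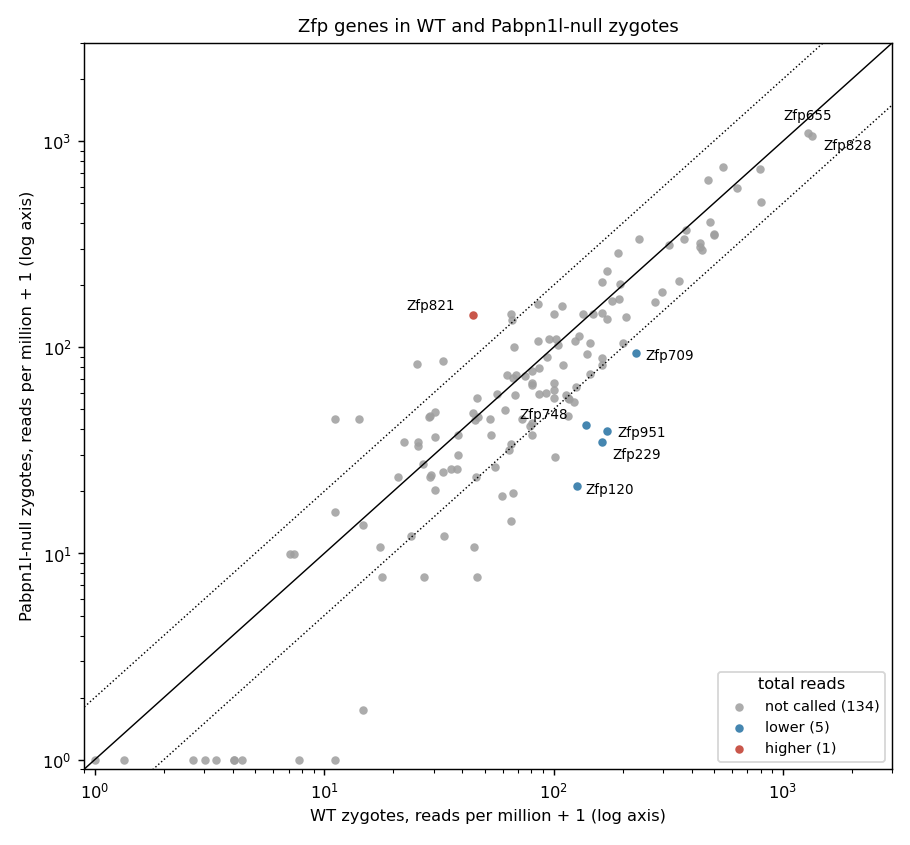
Depth-scaled reads (per 1000000, with 1 added) of the 140 members in WT zygotes (x) and Pabpn1l-null zygotes (y), both on log axes; the solid line marks equal levels, the dotted lines 2-fold, and colours the calls. Most points lie within or near the dotted lines, with 5 coloured points below and Zfp821 above.

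The authors' deposited table calls each row Positive or Negative per column, by a rule not given in the sources used here. In the authors' deposited table, 13 members were Positive for WT zygotes, 15 for null ones and 22 for 2-cell embryos (9.29%, 10.7% and 15.7%). In the authors' deposited table the same shares over genes with at least 200 reads were 10.7%, 14.3% and 19.8%. Of the members, 5 were Positive in all 3 columns of the authors' deposited table, Zfp592, Zfp655, Zfp68, Zfp828 and Zfp957. Another 14 were Positive in the 2-cell column alone of the authors' deposited table, among them Zfp951, Zfp750, Zfp770, Zfp791, Zfp142 and Zfp35.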

How the data were processed

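S4U-seq was run on 6 samples in 3 groups of 2. The deposited table holds counts per gene and group, of all reads and of T-to-C reads, and a Positive or Negative call by the authors. The build was mm10, per the submitters' processing notes. Not given in the sources used here were the aligner, the counting tool, the strand setting, the handling of duplicates and whether both samples of a group were merged. Of 30493 rows, 47 with a date for a name and 6131 repeats were dropped, and the row with most reads was kept per name (9 members had at least 2 distinct rows).

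TMM factors (edgeR 4.0.16 in R 4.3.3) were 0.988 (WT zygotes), 1.06 (null) and 0.959 (2-cell). Counts were divided by 7 and rounded, because in the null column more genes have 5 reads (298) or 7 (281) than 1 (184), so single molecules there may give several reads. In WT zygotes the number falls from 977 genes at 1 read to 326 at 7, so the tests may be cautious for the WT columns. The minimum for a test was 20 reads summed over columns, 10 such T-to-C reads or, for the share, 20 reads in both columns. Tests ran in Python 3.11.15 with scipy 1.17.1 and were tested on simulated data. Log2 ratios add 0.5 molecule scaled to column size. Intervals are at 95%.

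Named members are those with the most reads, the most T-to-C reads in a column, the largest called ratios (10 in each direction for total reads at the 2-cell stage, otherwise 5), those next to the minimum, and those on fixed lists; others, such as members with a high T-to-C share, members of the described clusters and Trim28 and Setdb1, were named after their values were seen or to account for a count. The members, the lists and the rules were chosen with earlier results of these data known. RefSeq symbols matched 135 members and synonyms 5, and all 140 are protein coding. Protein sequences were not used here, so members were not split by KRAB domain or number of fingers.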

Additional observations from a re-analysis of the deposited data

How the results depend on the processing

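No paired analysis was possible because each group has 1 pair of columns, and for the same reason no replicate could be left out. With edgeR's exact test at an assumed variation of 0.4, 50 members differed in total reads at the 2-cell stage, against 82 by the binomial test. In T-to-C reads 27 did, against 5, and in total reads of null zygotes 0 did, against 6. Over all genes edgeR called 2970 of 11262, 937 of 4376 and 147 of 11262, in that order. Counting every read as 1 molecule gave, for 2-cell embryos, 47 members in T-to-C reads and 26 in T-to-C share. Over all genes it gave 2158 of 4376 and 1083 of 6909. For null zygotes it gave 34 members in total reads, 18 in T-to-C reads and 15 in T-to-C share. The counts over all genes were 2707 of 11262, 745 of 4376 and 797 of 5999. Counting clumps in the null column alone is, for 2-cell embryos, the same run as counting every read as 1 molecule, with the same 47 members. For null zygotes it gave 11 members in total reads, beside 329 of 11262 genes. Without a filter on low counts, 2 members were called in T-to-C reads of 2-cell embryos, beside 164 genes in all. There 23259 genes instead of 4376 share the adjustment. RLE factors moved the median log2 ratio of genes with at least 200 reads from -0.06 to 0.21. That of the members moved from -0.41 to -0.13. A change of factors moves every gene's ratio by nearly the same amount, so the gap between these medians could hardly change. With RLE factors 80 members were called in total reads, beside 3743 of 11262 genes. The summed T-to-C share without its heaviest member was 2.90%, 3.26% and 3.43% in the 3 columns. In checks of single named members, 239 kept direction and call, 14 lost the call and 0 turned direction. The tally holds repeated runs, since for 2-cell embryos the clump setting of the null column equals the every-read setting. Settings that only change the filter or the reads per molecule leave each ratio of reads as it was. Other size factors moved the ratios by less than the 2-fold that a call needs. None of these settings could turn a direction, so the 0 does not speak for stability. The class shares without 1 member were added after seeing the data.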
